A study of Homo sapiens with 6 samples.

Results

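The genes described here are the integrin alpha and beta subunits, the laminin chains and 9 adaptor proteins of focal adhesions, in human bronchial epithelial (HBE) cells treated with an allergen extract. They were chosen by gene name, with earlier results of these data known. The names cover 18 integrin alpha genes, 8 integrin beta genes, 12 laminin genes and the adaptors *TLN1*, *VCL*, *PXN*, *PTK2*, *ILK*, *ZYX*, *PARVA*, *FERMT1* and *FERMT2*. This makes 47 of the 61228 genes in the table. HBE cells are an immortalized cell line, labelled as wild type, and the same line was used for all libraries. In the CRE group (n = 3 libraries) the cells received cockroach extract, and in the CRE + VAF347 group (n = 3 libraries) they received the same extract together with VAF347, a small-molecule agonist of the aryl hydrocarbon receptor (AhR). RNA was sampled at 24 h, and the study's culture methods give VAF347 at 20 μM, applied ahead of the extract. Untreated cells and cells given VAF347 without extract were not analysed here, so every difference below is between extract with and extract without the agonist.

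Integrins are receptors made of 1 alpha and 1 beta subunit that hold a cell to the matrix around it. Laminins are trimers of an alpha, a beta and a gamma chain and are the main adhesive proteins of the basement membrane under an epithelium. Inside the cell, talin and kindlins bind the beta subunit tail and switch the receptor on, and vinculin, paxillin, zyxin, integrin-linked kinase, parvin and focal adhesion kinase build the plaque that ties it to actin. In airway epithelium, ITGA6 with ITGB4 anchors basal cells in hemidesmosomes, and ITGAV with ITGB6 or ITGB8 can release active TGF-beta from its latent complex.

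The RefSeq promoter table (GRCh38.p14), which runs from 250 bases before to 50 bases after each gene start, held 32 of the 47 genes. It had no entry for 15, among them *ITGB4* and *PTK2*. Activated AhR binds DNA with the core GCGTG, which reads CACGC on the other strand. Parts of the promoters of the 3 genes that changed and had an entry are printed here with each copy of this core in capitals. The first line for each gene is the stretch before both the RefSeq and the GENCODE v44 start, and a further line is a 29-base window around a copy that lies after the GENCODE start.
ITGB6, chr2:160200314-160200522, minus strand: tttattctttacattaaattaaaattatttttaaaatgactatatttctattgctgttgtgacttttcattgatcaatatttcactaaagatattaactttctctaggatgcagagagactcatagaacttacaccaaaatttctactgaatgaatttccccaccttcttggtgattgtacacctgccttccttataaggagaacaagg
ITGB8, chr7:20330650-20330701, plus strand: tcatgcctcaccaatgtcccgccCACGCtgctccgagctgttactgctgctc
ITGB8, chr7:20330742-20330770, plus strand: ggcgctccggtaGCGTGgggaggtttcct
ITGA4, chr2:181457136-181457201, plus strand: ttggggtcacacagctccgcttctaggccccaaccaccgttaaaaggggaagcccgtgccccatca
ITGA4, chr2:181457338-181457366, plus strand: gcgcctccgcacCACGCccgggaccccac

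The *ITGB8* promoter held 2 copies of the core, starting at -227 and -146 from the RefSeq start, and the *ITGA4* promoter held 1, at -36. The *ITGB6* promoter, which is AT-rich with 30.1% G or C in the stretch shown, held no copy in this window. Over the 32 promoters, 13 held at least 1 copy, against 36.5% of 35116 RefSeq promoters of the same length. A longer form, TNGCGTG on either strand, contains the core and was present in 2 of the 32, *ITGB8* and *ITGA2B*, against 5.51% of all promoters. These are matches of letters, and binding was not measured in these libraries.

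The libraries held 8873160 to 10750283 counts, of which the adhesion genes took 0.499% to 0.601%. *CYP1A1*, an AhR target, had 6, 8 and 5 counts with CRE and 454, 412 and 460 with CRE + VAF347, in the direction of the labels. Epithelial markers summed to 3726 to 4612 TPM, a level scaled to transcript length and depth, in CRE and 3701 to 3785 in CRE + VAF347. Of these markers the keratins *KRT7* (-0.29, adjusted p = 0.0257), *KRT17* (-0.27, adjusted p = 0.0240) and *KRT19* (-0.38, adjusted p = 0.0265) were lower by edgeR with CRE + VAF347, on the log2 scale. *KRT5* (-0.37), *CDH1* (-0.18) and *KRT8* (-0.05) were below 0, and *KRT18* (0.11) and *EPCAM* (0.03) above 0. None of these had an adjusted p under 0.05. The part of the epithelial markers in the results was not tested. Of the basal cell markers, *TP63* had at most 1 count while *KRT5* had at least 7.25 TPM and *KRT17* at least 116 TPM in every library. The club cell genes *SCGB1A1* and *SCGB3A1* had 0 counts. Of the 35 adhesion genes tested, 22 were highest in CRE replicate 3 (62.9%), as were 25.3% of all genes tested. For the adhesion genes, log2 fold changes that moved markedly without that library are given both ways.

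Of the 47 genes, 35 passed the filter on low counts. The other 12 had at most 8 counts in any library and were not tested. *ITGA8*, *ITGAD* and *LAMB4* had 0 counts in every library, where a count of 0 allows up to 3 counts, or 0.279 to 0.338 per 1000000 (counting error only). The rest of the 12 were the leukocyte integrin genes *ITGAL*, *ITGAM*, *ITGAX* and *ITGB7*, the alpha genes *ITGA9*, *ITGA10* and *ITGA11*, and the laminin genes *LAMA4* and *LAMC3*. The lowest count of any tested gene of the group was 11.

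On TPM, which allows levels of different genes to be compared per transcript length, *ITGB1*, the beta subunit shared by most integrins, led with a mean of 193 over the 6 libraries (range 177 to 225). *LAMB1* followed at 182, with a range of 170 to 226, and *ITGAV* at 155, with a range of 139 to 195, so that these neighbours overlapped. *PTK2*, which encodes focal adhesion kinase, and *PXN*, which encodes paxillin, had means of 133 and 130 TPM, and *LAMA5* had 111. Below them came *ITGA3* at 96.7, *TLN1* at 89.1, *ITGAE* at 88.4 and *ITGB4* at 69.0 TPM. In all, 6 of the tested genes had a mean above 100 TPM and 9 a mean under 10 TPM.

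**Figure D1:**
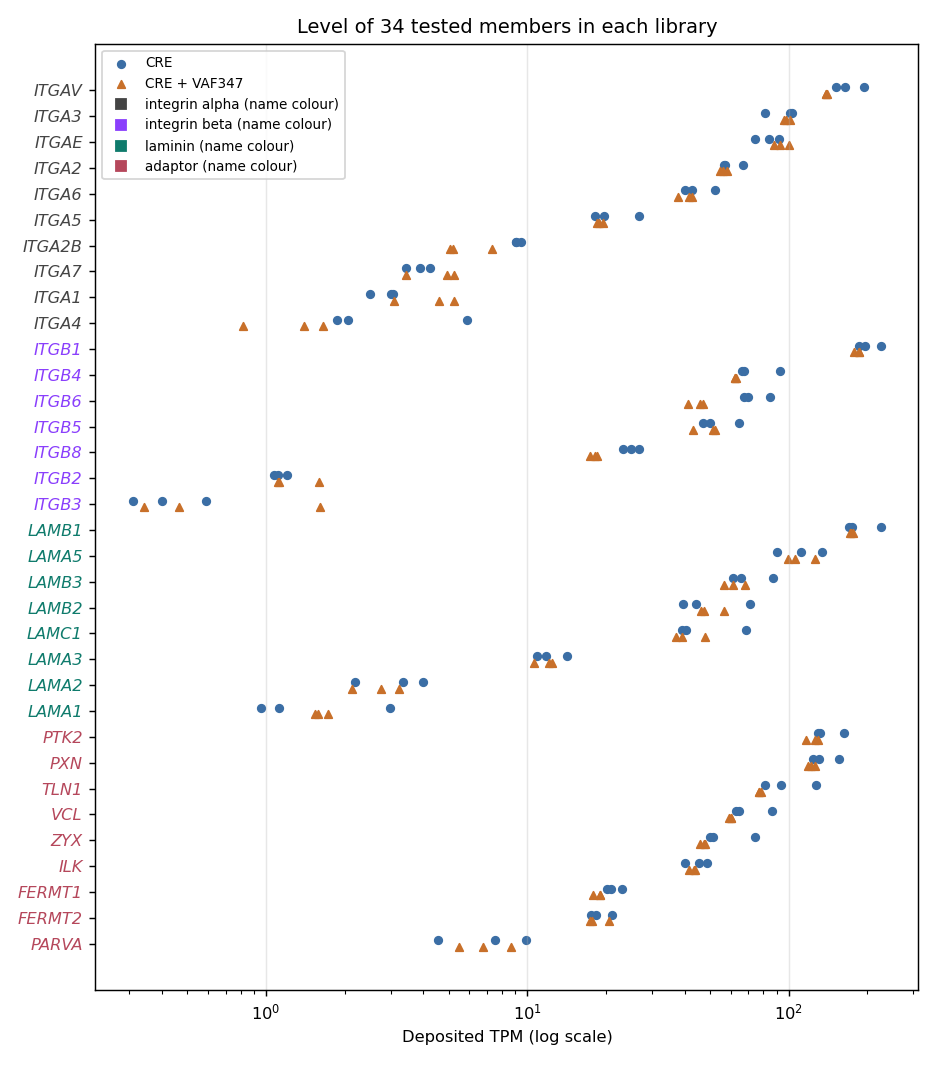
TPM on a log axis of 34 of the tested adhesion genes in each library, with 3 CRE libraries as circles and 3 CRE + VAF347 libraries as triangles, ordered by mean level within each family. *ITGB1*, *LAMB1* and *ITGAV* lie above 100 TPM in every library, and the triangles of *ITGB6* and *ITGB8* lie left of all their circles.

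The comparison asks which of these genes changed when the AhR agonist was added to the extract. *ITGB6*, *ITGB8*, *ITGB4* and *ITGA4* fell, and none rose. By edgeR's quasi-likelihood test with Benjamini-Hochberg adjustment over 15373 genes, 4 of the 35 had an adjusted p under 0.05 at any fold and were lower, against 4.07% of all genes tested that were lower by this rule and 1.35% that were higher. With an absolute log2 fold change over 0.5 as well, 2 were lower (*ITGB6* and *ITGA4*) and 0 higher, against 1.71% and 0.501% of all genes. All 4 encode integrin subunits, and no laminin and no adaptor passed, where 5.42% of all genes tested did at any fold. With 9 laminins and 9 adaptors tested, 0 calls is near that share and does not set the families apart. The median log2 fold change over the 35 genes was -0.13, against 0.01 over all genes tested, and it was -0.08 without CRE replicate 3. In 15 of the 35 the groups did not overlap with CRE + VAF347 lower (14.8% of all genes), and in 3 they did not overlap with it higher (12.5%). A log2 fold change below 0 was found for 27 of the 35, against 47.9% of all genes.

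**Figure D2:**
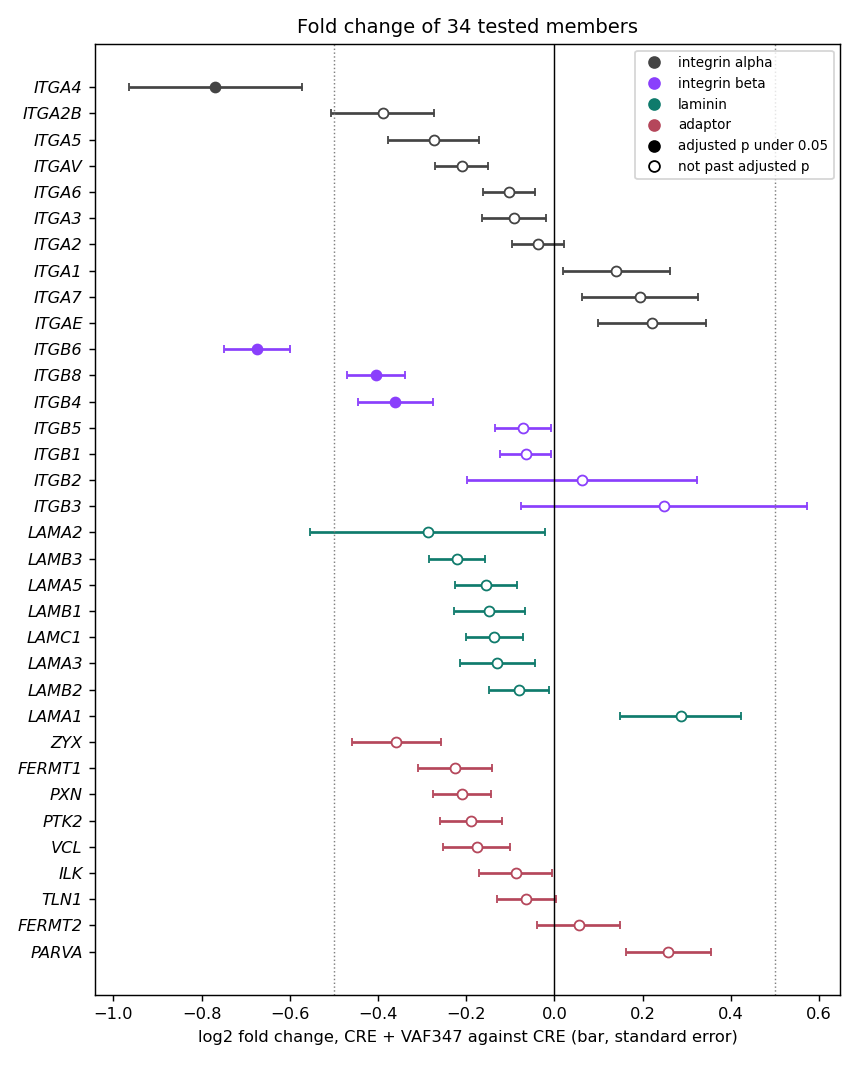
log2 fold change of 34 of the tested genes, CRE + VAF347 against CRE, with its standard error as a bar, and dotted lines at the fold threshold of 0.5. The 4 filled points, *ITGA4*, *ITGB6*, *ITGB8* and *ITGB4*, passed an adjusted p of 0.05 and all lie left of 0.

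Among the beta subunits, *ITGB6* (GENCODE v44, GRCh38, chr2:160099667-160200313, minus strand), an epithelial subunit that pairs only with the ITGAV chain, had the largest change. Its level was 147, 140 and 155 CPM (counts scaled to depth, TMM-normalized) with CRE, against 99.0, 95.2 and 83.1 CPM with CRE + VAF347. Every CRE library was well above every library with the agonist. The log2 fold change was -0.67 (SE 0.08), a level 37.3% lower, with an adjusted p of 0.000586 by edgeR. It kept its sign in all 16 alternative fits and passed in 15 of them, the exception being limma on unfiltered TPM (adjusted p = 0.112).

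*ITGB8* (chr7:20330702-20415754, plus strand), the other beta subunit known for activating latent TGF-beta, also fell. It had 94.4, 89.5 and 85.5 CPM with CRE and 70.4, 67.9 and 65.1 CPM with CRE + VAF347. The groups were separate, with a gap wider than the range within each. The log2 fold change was -0.40 (SE 0.07), with an adjusted p of 0.00510 by edgeR, and it passed in 13 of 16 alternatives. The 3 that lost the call were the limma fits on TPM, with adjusted p of 0.137 to 0.217.

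*ITGB4* (chr17:75721328-75757818, plus strand), the hemidesmosome subunit, had 335, 347 and 421 CPM with CRE and 299, 285 and 275 CPM with CRE + VAF347. The CRE libraries were all higher, and CRE replicate 3 was far above its own group. The log2 fold change was -0.36 (SE 0.09), with an adjusted p of 0.0332 by edgeR. It was -0.25 without CRE replicate 3 (adjusted p = 0.00497). The call was lost in 9 of 16 alternatives, among them a correction for GC content (-0.29, adjusted p = 0.117) and 4 of the 6 fits that left out a library. It was also lost with transcript length offsets (-0.23, adjusted p = 0.253) and in the limma fits on TPM.

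The remaining beta subunits did not pass the test. *ITGB1* had a log2 fold change of -0.07 (SE 0.06, adjusted p = 0.559) and *ITGB5*, a vitronectin receptor subunit, one of -0.07 (SE 0.06, adjusted p = 0.561), or -0.02 without CRE replicate 3. *ITGB2*, the common leukocyte subunit, and *ITGB3*, known from platelets, were close to the limit of detection, with 17 to 28 and 11 to 24 counts, and had log2 fold changes of 0.06 and 0.25 with standard errors of 0.26 and 0.32, or 0.15 and 0.44 without CRE replicate 3. The median over the 7 tested beta subunits was -0.07.

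**Figure D3:**
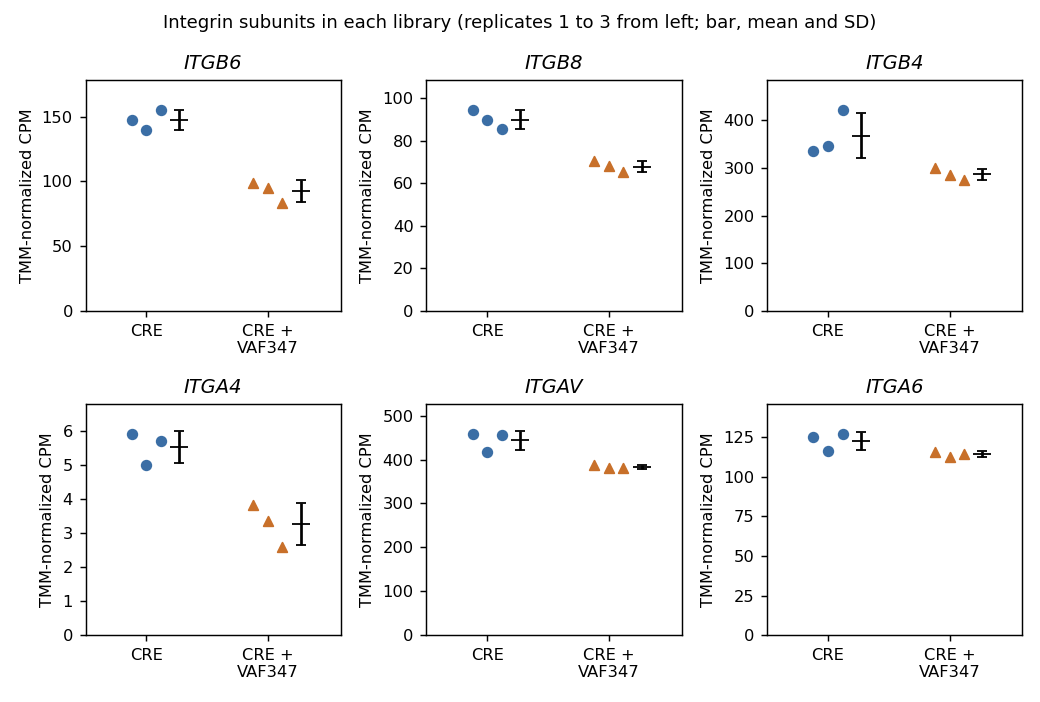
TMM-normalized CPM of 6 integrin subunits in each library, on linear axes from 0, with bars for the mean and SD of 3 libraries. The groups do not overlap for any of the 6, with the widest gap in relation to the level for *ITGB6* and *ITGA4* and the narrowest for *ITGA6*.

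ITGAV pairs with several beta subunits, so their levels were set side by side. The summed TPM of *ITGB1*, *ITGB3*, *ITGB5*, *ITGB6* and *ITGB8* was 341, 324 and 402 with CRE and 294, 294 and 298 with CRE + VAF347. *ITGB6* made up 20.4%, 20.9% and 21.1% of this sum with CRE, and 15.9%, 15.6% and 13.8% once the agonist was added. The share of *ITGB8* was 7.05% ± 0.33 with CRE, against 6.10% ± 0.22 with the agonist (SD, n = 3 each), again without overlap. The share of *ITGB1* was higher with the agonist in every library, at 62.0% ± 1.48 (SD, n = 3) against 56.9% ± 0.88 (SD, n = 3). The shares of *ITGB5*, 15.1% ± 0.89 with CRE and 16.5% ± 1.66 with CRE + VAF347 (SD, n = 3), overlapped. The two-sided exact permutation p was 0.1 for *ITGB6*, *ITGB8* and *ITGB1* and 0.2 for *ITGB5*. With 3 against 3 libraries 0.1 is the smallest p this test can give, and over the 4 shares the adjusted values were 0.133, 0.133, 0.133 and 0.2. Shares of 1 sum are not independent, since a smaller part for *ITGB6* leaves a larger part for the others.

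**Figure D4:**
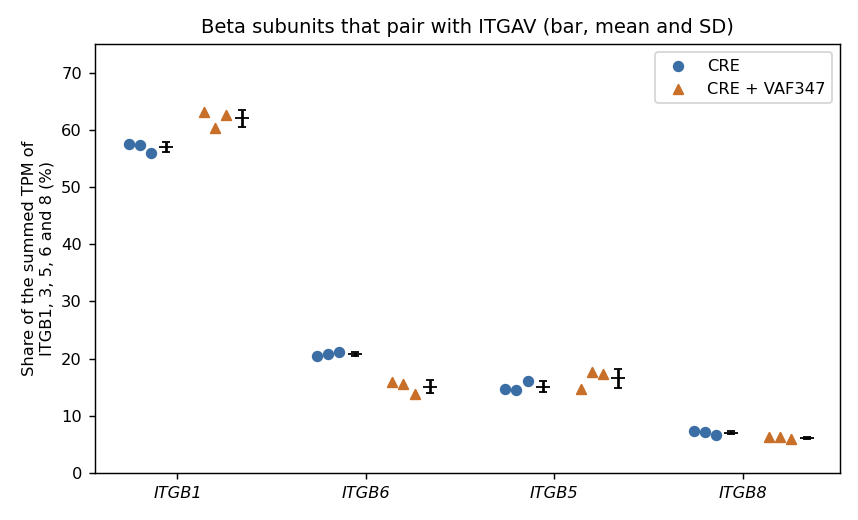
Share of each beta subunit in the summed TPM of the 5 partners of ITGAV, in percent, for 3 CRE libraries (circles) and 3 CRE + VAF347 libraries (triangles), with bars for mean and SD. *ITGB6* lies between 20.4% and 21.1% with CRE and between 13.8% and 15.9% with CRE + VAF347, and *ITGB3*, with under 1 TPM on average, is not drawn.

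The same comparison within each library, on counts, gave a log2 ratio of *ITGB6* to *ITGAV* of -1.63, -1.58 and -1.55 with CRE and -1.97, -2.0 and -2.20 with CRE + VAF347. This ratio cancels sequencing depth and normalization, and the groups did not overlap. The ratio of *ITGB4* to its partner *ITGA6* was 1.58 ± 0.16 with CRE and 1.33 ± 0.05 with CRE + VAF347 on the log2 scale (SD, n = 3). Of 8 such ratios computed, the exact permutation p was 0.1 for each and so was the adjusted value, so none could pass at this number of libraries.

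Among the alpha subunits, 1 of 10 tested passed (5.42% of all genes tested). *ITGA4* (chr2:181457202-181538940, plus strand), best known as the leukocyte receptor subunit for VCAM1 and fibronectin, had 57, 51 and 61 counts with CRE and 34, 32 and 26 with CRE + VAF347, or 5.90, 5.00 and 5.70 CPM against 3.82, 3.36 and 2.59. The groups were separate but rest on few counts, and *CERKL*, which overlaps *ITGA4* on the other strand, had 1 to 10. The log2 fold change was -0.77 (SE 0.20), with an adjusted p of 0.0446 by edgeR. The call was lost in 12 of 16 alternatives, including every fit that left out 1 library (adjusted p = 0.0581 to 0.174), while the sign stayed negative in all 16. The leukocyte marker *PTPRC* (CD45) had at most 2 counts in any library. The summed TPM of the 7 leukocyte markers was 25.8 to 28.9 with CRE and 17.3 to 23.3 with CRE + VAF347, mostly from *CD68*, and their part in the *ITGA4* result was not tested. In bulk libraries fewer cells of a type and less RNA per cell cannot be told apart.

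*ITGAV*, the alpha chain of the TGF-beta activating receptors, had 457, 417 and 455 CPM with CRE and 387, 380 and 382 CPM with CRE + VAF347. The groups did not overlap, but the log2 fold change of -0.21 (SE 0.06) missed the threshold, with an adjusted p of 0.0686 by edgeR. It passed with the GC correction (-0.31, adjusted p = 0.0118), without a filter on low counts (adjusted p = 0.0370) and without CRE replicate 3 (adjusted p = 0.0280). The other alpha chains that recognise the RGD motif of fibronectin and related ligands were *ITGA2B*, the platelet subunit, at -0.39 (SE 0.12, adjusted p = 0.0807), and *ITGA5*, the fibronectin receptor, at -0.27 (SE 0.10, adjusted p = 0.161). *ITGA5* was at -0.14 without CRE replicate 3 (adjusted p = 0.270), and it passed without a filter on low counts (adjusted p = 0.0188).

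Of the laminin-binding alpha chains none passed. *ITGA6* had 125, 116 and 127 CPM with CRE and 116, 112 and 114 CPM with CRE + VAF347. The highest library with the agonist lay just under the lowest CRE library, and the log2 fold change was -0.10 (SE 0.06, adjusted p = 0.354). *ITGA3* had -0.09 (SE 0.07), which became -0.02 without CRE replicate 3 and 0.06 in limma on log2(TPM + 1), and *ITGA7* 0.19 (SE 0.13). The collagen-binding chains *ITGA1* and *ITGA2* had 0.14 (SE 0.12) and -0.04 (SE 0.06), the latter -0.01 without CRE replicate 3. *ITGA1* shares its locus and strand with *PELO*, which had 520 to 617 counts against 93 to 124 for *ITGA1*.

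*ITGAE*, the subunit of the receptor for E-cadherin on intraepithelial lymphocytes, ranked ninth by TPM but had only 179 to 253 counts. Its TPM rests on an estimated transcript length of about 424 nt, recovered as counts divided by TPM and scaled on genes with 1 annotated transcript. The longest annotated *ITGAE* transcript has 3803 nt and the shortest 354 nt. The gene *HASPIN*, on the other strand inside *ITGAE*, had 206 to 298 counts, and whether the counting used strand is not given in the sources used here. The log2 fold change of *ITGAE* was 0.22 (SE 0.12, adjusted p = 0.337), or 0.09 without CRE replicate 3.

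None of the 9 laminin chains tested passed (5.42% of all genes tested did). Their log2 fold changes ran from -0.29 to 0.29, with a median of -0.14 and adjusted p from 0.0707 upward. *LAMA3* and *LAMB3* encode laminin chains typical of epithelial cells. *LAMB3* had 204, 207 and 222 CPM with CRE and 173, 179 and 191 CPM with CRE + VAF347. Its groups did not overlap, and the log2 fold change was -0.22 (SE 0.06, adjusted p = 0.0707 by edgeR). It passed without CRE replicate 3 (adjusted p = 0.0458) and without a filter on low counts (adjusted p = 0.0348).

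*LAMA3* had 52.1, 55.1 and 65.1 CPM with CRE and 52.6, 53.8 and 51.3 CPM with CRE + VAF347. The groups overlapped, and the log2 fold change was -0.13 (SE 0.09, adjusted p = 0.428), or -0.03 without CRE replicate 3.

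The other laminin chains described here also did not pass. *LAMA5*, the main alpha chain of adult epithelial basement membranes, had -0.15 (SE 0.07) and *LAMC1* -0.14 (SE 0.06), both without overlap between groups. *LAMB1* had -0.15 (SE 0.08), *LAMB2* -0.08 (SE 0.07) and *LAMA2* -0.29 (SE 0.27, on 21 to 44 counts). Without CRE replicate 3 these 5 moved toward 0, to -0.10 for *LAMA5*, -0.08 for *LAMC1*, -0.04 for *LAMB1*, -0.02 for *LAMB2* and -0.12 for *LAMA2*. *LAMA1*, an embryonic chain with 60 to 78 counts, was the only laminin above 0 in this fit, at 0.29 (SE 0.14, adjusted p = 0.267), and its groups did not overlap. Of the 9 tested laminins 8 were highest in CRE replicate 3, and without that library their median was -0.04.

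All 9 adaptors were tested and none passed (5.42% of all genes tested did). Their log2 fold changes ran from -0.36 to 0.26, with a median of -0.18. *ZYX*, which encodes zyxin, was nearest, with 92.5, 88.0 and 119 CPM with CRE and 79.8, 75.6 and 78.3 CPM with CRE + VAF347. The groups did not overlap, and CRE replicate 3 was far above the others. The log2 fold change was -0.36 (SE 0.10, adjusted p = 0.0655 by edgeR), or -0.21 without CRE replicate 3 (adjusted p = 0.0331). It also passed by DESeq2's Wald test (adjusted p = 0.0354), without CRE replicate 2 (adjusted p = 0.0462) and without a filter on low counts (adjusted p = 0.000147).

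*PXN*, the paxillin scaffold, had -0.21 (SE 0.07, adjusted p = 0.0918), *PTK2* -0.19 (SE 0.07) and *VCL*, which encodes vinculin, -0.18 (SE 0.08), each without overlap. Without CRE replicate 3, *PTK2* was at -0.12 and *VCL* at -0.08. Of the kindlins, the epithelial *FERMT1* had -0.23 (SE 0.08, adjusted p = 0.154) and the widely expressed *FERMT2* 0.05 (SE 0.09, adjusted p = 0.784), which became 0.10 without CRE replicate 3 and turned to -0.026 with the GC correction. *TLN1*, which encodes talin, had -0.06 (SE 0.07), or 0.0034 without CRE replicate 3, and *ILK* -0.09 (SE 0.08). *PARVA*, which encodes the parvin that binds ILK, was above 0 in the counts at 0.26 (SE 0.10, adjusted p = 0.154) without overlap, but at -0.03 in limma on log2(TPM + 1).

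Other genes of the adhesion pathway were taken from lists of 72 genes, 63 of them tested. By edgeR, 17 were lower and 2 higher at any fold, against 4.07% and 1.35% of all genes tested. Past both thresholds 6 were lower and 0 higher, against 1.71% and 0.501%. The lists were written with earlier results of these data known, so counts from them are a description and not a test. The study had already reported lower *TGFB2* with VAF347. Its pathway analysis of the same comparison also named focal adhesion and matrix-receptor interaction among the altered pathways. Among the ligands of integrins and the latent TGF-beta genes, 4 of 10 tested fell past both thresholds (1.71% of all genes). *FN1*, which encodes fibronectin, a ligand of receptors with ITGA5, ITGAV or ITGA4, had a log2 fold change of -1.09 (SE 0.10). *TNC*, which encodes tenascin C, had -1.0 (SE 0.09), *TGFB2* -0.87 (SE 0.10) and *THBS1*, which encodes thrombospondin 1, -0.70 (SE 0.09). Their adjusted p ranged from 0.000143 to 0.00144.

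Of 7 hemidesmosome genes and non-integrin laminin receptors, 2 fell at any fold (4.07% of all genes), and *COL17A1*, the transmembrane collagen that binds ITGB4 and laminin in hemidesmosomes, passed both thresholds at -0.65 (SE 0.11, adjusted p = 0.00555 by edgeR). It had 160, 174 and 191 CPM with CRE and 127, 117 and 92.0 CPM with CRE + VAF347. Of 10 tested basement membrane partners of laminin 4 fell at any fold (4.07% of all genes). None passed both thresholds, where 1.71% of all genes were lower and 0.501% higher. Of 36 other focal adhesion proteins 7 fell and 1 rose at any fold, where 4.07% of all genes fell and 1.35% rose. Of these, *TNS3*, a tensin that binds beta subunit tails, passed both thresholds at -0.63 (SE 0.08, adjusted p = 0.000907 by edgeR). The median log2 fold change of the 63 genes was -0.14.

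Markers of other cell types moved in part with the treatment. The 4 endothelial markers summed to 9.41 to 10.4 TPM with CRE and 6.03 to 7.46 TPM with CRE + VAF347. By edgeR *CDH5* (-0.84, adjusted p = 0.00119) and *VWF* (-1.45, adjusted p = 0.0107) fell, while *PECAM1* had at most 3 counts in any library. *KDR*, with up to 89 counts, did not fall (0.14, adjusted p = 0.683 by edgeR). The 10 mesenchymal markers summed to 31.3 to 36.1 TPM with CRE and 27.6 to 30.2 TPM with CRE + VAF347, with *PDGFRA*, *DCN* and *LUM* at 0. Their part in the integrin results was not tested.

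**Figure D5:**
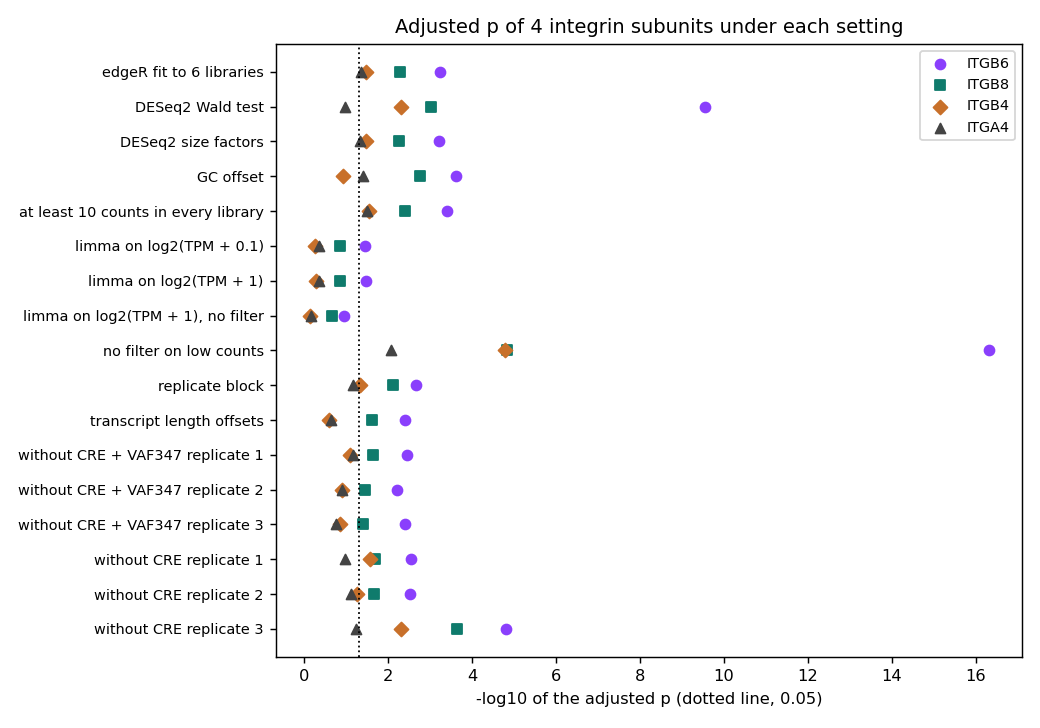
Adjusted p of the 4 integrin subunits that fell, as -log10, under the edgeR fit and 16 alternatives, with a dotted line at 0.05. *ITGB6* is right of the line in 15 of the alternatives, *ITGB8* in 13, *ITGB4* in 7 and *ITGA4* in 4.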

How the data were processed

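RNA-seq of poly(A)-enriched RNA was analysed in 6 libraries, 3 per group, assigned from the sample labels. The labels do not say that the libraries came from separate cultures, so p-values measure the spread between these libraries. The authors made the deposited expected counts and TPM values with Salmon (version not given in the sources used here) on hg38 and summed them per gene. The deposited TPM values sum to 1000000 per library, and 14.5% of the expected counts were not whole. The authors' table of log2 fold changes, p-values, mean normalized signal and test statistics (a score), made with DESeq2 per the study's methods, was not used.

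The main test, on rounded expected counts, was edgeR 4.0.16's quasi-likelihood test under R 4.3.3, after filterByExpr and TMM, with Benjamini-Hochberg adjustment over all genes tested. The standard error is the log2 fold change divided by the square root of F. A gene passed at an adjusted p under 0.05, and passed both thresholds if its log2 fold change was also beyond 0.5 in size. Alternatives were DESeq2 1.42.0 (Wald test, size factors), limma 3.58.1 on log2(TPM + 1) and log2(TPM + 0.1) at a mean TPM of at least 1 and on log2(TPM + 1) without a filter, other filters (none, or 10 counts in every library), GC and transcript length offsets, a replicate block and leaving out each library. The fits were tested on simulated data. Positions and overlaps are from GENCODE v44 (GRCh38), and promoter sequences from RefSeq.

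The genes, lists and tests were chosen with earlier results of these data known. Tested members are named, except that some results are not reported here. Those with an adjusted p under 0.05, and *LAMA3*, *LAMB3*, *ITGA6* and *ITGB4*, have a value for every library, as do *ITGAV*, *ZYX* and *COL17A1*, chosen after their values were seen. Of the pathway lists, genes past both thresholds are named. Depth was 8873160 to 10750283 counts per library.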

Additional observations from a re-analysis of the deposited data

How the results depend on the processing

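Over 542 values of 34 tested genes under 16 alternatives, 487 kept their direction and side of the threshold, 25 lost a call, 10 gained one and 20 changed sign. None of the genes that changed sign had passed the test, and the cause was not tested. The values after the change were, for *FERMT2*, -0.026 with the GC offset, -0.035 in limma on log2(TPM + 0.1) and -0.033 in both other limma fits. *ITGA3* was 0.060 and 0.059 in these fits and 0.093 with length offsets, and *PARVA* was -0.029 and -0.031 in them and -0.0060 with length offsets. With length offsets *LAMA5* was 0.023 and *LAMB2* 0.015. Leaving out a library took *FERMT2* to -0.029 to 0.11, *ITGB2* to -0.10 to 0.20, *ITGB3* to -0.042 to 0.44 and *TLN1* to -0.097 to 0.0034. The number of genes past both thresholds was 1 with DESeq2's Wald test, both filtered limma fits, length offsets and each fit without 1 library, and 0 in unfiltered limma, where *ITGB6* kept an adjusted p of 0.112. At any fold it was 1 in both filtered limma fits, 0 in unfiltered limma, 2 with length offsets, 8 without a filter on low counts and 2 to 6 when a library was left out. It was 2 without any CRE + VAF347 library and 6 without CRE replicate 3. Over all genes the limma fits called 87, 85 and 32, the fit with length offsets 295 and that without a filter 1586, against 833. Leaving out a CRE + VAF347 library gave 305 to 381 calls over all genes (1.96% to 2.43%). Without CRE replicate 1, 2 or 3 the calls over all genes were 622, 501 and 1287 (3.98%, 3.21% and 8.26%). Pathway genes lower past both thresholds numbered 3 in limma on log2(TPM + 1) and 0 unfiltered, and 0 to 1 were higher when a library was left out. The median was -0.0030 for alpha subunits in unfiltered limma, and -0.20 for beta subunits in both filtered limma fits. These medians are over other sets of genes, since the filtered limma fits held 34 adhesion genes, without *ITGB3*, and the unfiltered fit 44. For laminins the median was -0.028 with length offsets and -0.19 to -0.044 when a library was left out.

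The labels do not say whether the replicate numbers shared by the groups pair the libraries. Deviations of same-numbered libraries correlated weakly, at 0.07, 0.10 and 0.05, and each correlated best with its own number. Differently numbered libraries correlated at -0.052 to -0.015. With 3 libraries per group these values cannot decide whether the libraries were paired. With the replicate block 726 genes passed at any fold, and of the adhesion genes 3 did and 1 passed both thresholds.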

Other observations

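Some of these genes had a different estimated transcript length in the 2 groups. The length of *TLN1*, recovered as counts divided by TPM, was 8352 nt with CRE and 9949 nt with CRE + VAF347 on average, with an exact permutation p of 0.1, the smallest that 3 against 3 libraries can give. On counts its log2 fold change was -0.06, and in the fits that use length it went down to -0.35, with no adjusted p under 0.187 in any alternative outside those that left out a library. The length scale is approximate: genes with 1 annotated transcript scattered around it by 20.4% to 21.5% (median absolute deviation). On average 7 of 35 adhesion genes exceeded their longest annotated transcript, *TLN1*, *ITGB4*, *ZYX* and *LAMB3* among them. The longest annotated *TLN1* transcript has 8674 nt, less than the 9949 nt estimated with CRE + VAF347. The length of *ITGA4*, on few counts, ranged from 1867 to 5243 nt between libraries. The lengths of *ITGB6* were 3429 nt with CRE and 3469 nt with CRE + VAF347, and those of *ITGB8* were 6173 and 6308 nt. Those of *ITGB4* were 8401 nt with CRE and 7694 nt with CRE + VAF347, without overlap between groups (exact permutation p = 0.1).

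At any fold, and named after their values were seen, the basement membrane partners of laminin that fell were *HSPG2* (-0.49), *COL4A1* (-0.35), *COL4A2* (-0.38) and *COL7A1* (-0.39), which encode perlecan, both chains of the common type IV collagen and the anchoring fibril collagen. *DST* (-0.29), a plakin that links hemidesmosomes to keratin, fell as well. Among the focal adhesion genes that fell were *CAV1* (-0.47), *TRIP6* (-0.39), *SRC* (-0.33), *FLNA* (-0.33) and *ACTN4* (-0.32), and the zyxin relative *LPP* rose (0.25). *EDIL3* (0.49), which encodes a ligand of ITGAV receptors, also rose.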
